A study of Homo sapiens with 10 samples.

Results

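The regions described here are the ERG and EWS ChIP-seq peaks of human chromosome 19, 936 of the 30301 peaks in 7 deposited lists (3.09%). They were all peaks listed on that chromosome in genome build hg19, apart from those centred in a window from 51300000 to 51440000. The window took out 7 VCaP ERG peaks and 1 VCaP EWS peak. The peaks nearest to it were kept, at 1.95 kb (VCaP ERG) and 2.14 kb (VCaP EWS) below its lower edge. The chromosome was picked, and its megabase from 13 to 14 Mb was chosen by its peak counts, after values of these lists had been seen: 59 peaks in replicate 2 and 0 in replicate 1 of wild-type ERG. Those counts are therefore given as a description.

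ChIP-seq had been done with an antibody against ERG or against EWS in VCaP, a prostate cancer line, and in RWPE1, a line from normal prostate epithelium. The RWPE1 cells stably expressed either ERG P436A, a point mutant, or wild-type (WT) ERG, and grew in a serum-free keratinocyte medium with bovine pituitary extract, epidermal growth factor and the selection agents puromycin and hygromycin. VCaP grew in a serum-containing medium, and no treatment was given to any cells. VCaP ERG held 368 of the chromosome 19 peaks and VCaP EWS 282, P436A ERG 55 and P436A EWS 34, WT ERG 42 (replicate 1) and 103 (replicate 2), and WT EWS 52. Replicate lists exist for WT ERG in RWPE1 alone, and nothing in the labels says whether those 2 came from separate cultures, or whether an RWPE1 line is 1 clone or a pool. The 3 input samples were not used here. The lists give positions only, with no height or read depth, so a peak can be compared with another by place, width and order in its list. No expression values were at hand to check the identity of the cells.

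ERG is a transcription factor of the ETS family, which binds DNA at a short core motif and is placed under an androgen-driven promoter by a gene fusion in many prostate cancers, VCaP among them. EWS is an RNA-binding protein of the FET family that acts with transcription factors as a co-activator, and its gene is broken in Ewing sarcoma, where it can be fused to an ETS gene. Whether the P436A form of ERG still meets EWS on chromatin is the question the RWPE1 lines address. Chromosome 19 is the most gene-dense human chromosome. It carries large families of zinc-finger genes and many active promoters, so factors that bind at promoters tend to be dense on it. Only gene tables of a later assembly than hg19 were at hand, so no peak was assigned to a gene and no sequence was read.

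Relative to the other chromosomes, VCaP ERG peaks were dense on chromosome 19, whereas WT EWS peaks of RWPE1 were sparse there. Chromosome 19 held 4.77% of VCaP ERG peaks (4.31% to 5.27%) and 2.97% of VCaP EWS peaks (2.64% to 3.33%). The intervals are exact (Clopper-Pearson) 95% binomial intervals, here and below, and cover counting error only, since peaks of 1 list are not replicates. With P436A the shares were 3.15% of ERG peaks (2.38% to 4.08%) and 1.90% of EWS peaks (1.32% to 2.65%). With WT ERG they were 2.21% (1.60% to 2.97%) in replicate 1 and 5.27% (4.32% to 6.36%) in replicate 2 of ERG, and 0.912% (0.682% to 1.19%) of EWS. Each ERG list thus had a larger share on the chromosome than the EWS list of the same cells, and the intervals overlapped in the P436A cells alone. The 2 WT ERG replicates differed beyond their intervals, which rested on the 13 to 14 Mb megabase: without its peaks, replicate 2 had 44 peaks on the chromosome, or 2.32% (1.69% to 3.11%), close to the 2.21% of replicate 1.

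**Figure D1:**
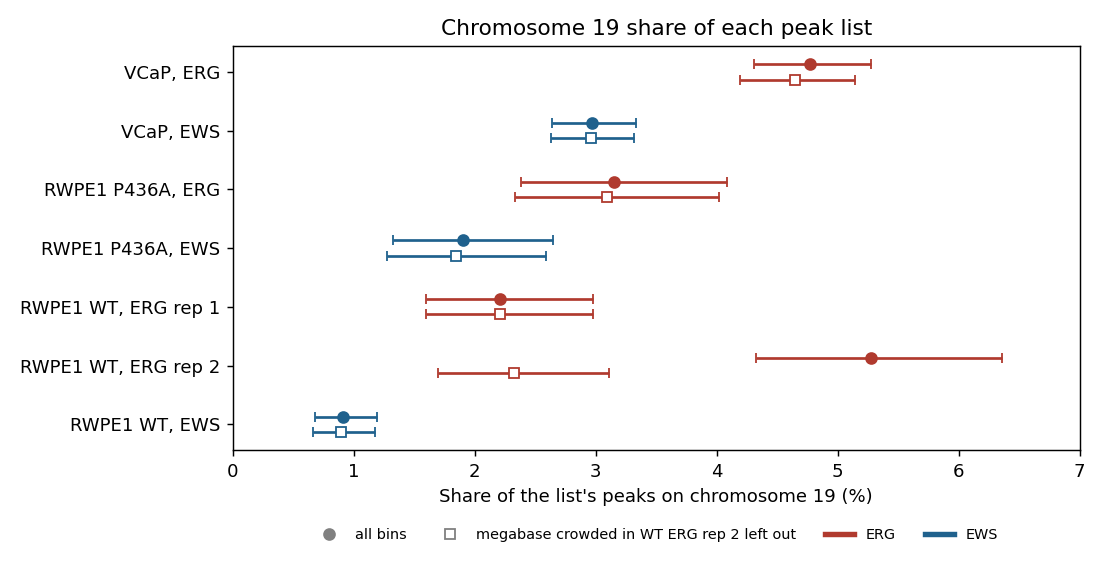
Share of each list's peaks that lay on chromosome 19, in percent, with exact 95% binomial intervals; red marks ERG lists and blue EWS lists, filled circles all megabases and open squares the same without the megabase from 13 to 14 Mb. The open square of WT ERG replicate 2 sits at 2.32%, against 5.27% for its filled circle, while the other lists hardly move.

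Set against the other chromosomes, density was counted as peaks per Mb up to the last listed peak of any list, 59.1 Mb for chromosome 19. VCaP ERG had 6.23 peaks per Mb on chromosome 19 and 2.47 on the other autosomes and X, a ratio of 2.53, and the chromosome stood second of 23 after chromosome 11 (7.79 per Mb). VCaP EWS had 4.77 per Mb on it and 3.10 elsewhere, a ratio of 1.54. P436A ERG had 0.931 per Mb on it and 0.569 elsewhere, a ratio of 1.64, and P436A EWS had 0.576 and 0.590, a ratio of 0.976. For WT ERG the ratios were 1.14 in replicate 1 and 2.80 in replicate 2. WT EWS had 0.880 per Mb on chromosome 19 and 1.90 elsewhere, a ratio of 0.464, and the chromosome stood at place 18 of 23. WT EWS was the only list with a ratio under 0.9. In peaks per Mb on chromosome 19 it still stood above P436A EWS and replicate 1 of WT ERG. It was thus sparse there only relative to the rest of its own list. In each RWPE1 list the densest chromosome was 20, at 2.54 to 7.28 peaks per Mb.

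The difference between antibodies was tested over lists, and it did not pass. The chromosome 19 share averaged 3.85% ± 1.42 in ERG lists (SD, n = 4) and 1.93% ± 1.03 in EWS lists (SD, n = 3), a difference of 1.92 percentage points (exact permutation test, two-sided, p = 0.114; adjusted p = 0.229 over 2 tests). The smallest p this design can give is 0.0286. Without the 13 to 14 Mb megabase the difference was 1.17 points (exact permutation p = 0.257). Paired by cells, with the WT ERG replicates averaged, ERG was higher in 3 of 3 pairs, by 1.80 points in VCaP, 1.25 with P436A and 2.83 with WT ERG (exact sign-flip permutation test, two-sided, p = 0.25, the smallest that 3 pairs can give). In the WT pair the difference was 1.30 points for replicate 1 and 4.36 for replicate 2, with the 13 to 14 Mb megabase counted. The pairing was not repeated without that megabase, and it was added after the values were seen. Between the lines, VCaP lists averaged 3.87% ± 1.28 (SD, n = 2) and RWPE1 lists 2.69% ± 1.65 (SD, n = 5), a difference of 1.18 points (exact permutation test, two-sided, p = 0.476; adjusted p = 0.476). The smallest p there is 0.0476. Without replicate 2 of WT ERG the difference was 1.83 points (exact permutation p = 0.200). Without the 13 to 14 Mb megabase, left out after the values were seen, it was 1.73 points (exact permutation p = 0.0952, adjusted p = 0.190). Each group mixes antibodies, genotypes or lines, so these SDs are not those of replicates.

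In VCaP, ERG and EWS crowded into many of the same megabases of chromosome 19. The chromosome was cut into 60 bins of 1 Mb, and peaks were counted by their centres. VCaP ERG had a peak in 51 bins, with a median of 4 and at most 21 per bin, and 16 bins held 10 or more. VCaP EWS had a peak in 46 bins, with a median of 3 and at most 19, and 8 bins held 10 or more. Every bin with a VCaP EWS peak also had a VCaP ERG peak, and 5 bins had ERG alone. ERG counts were higher in 33 bins, EWS counts in 16, and the 2 were equal in 11. Across the 60 bins the counts correlated at Pearson 0.608 and Spearman 0.717, as a description of bins that share a cell line, a genome and its mappable sequence.

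The fullest bins were only partly the same for the 2 antibodies, with 18 to 19 Mb among the 3 fullest of both. The 3 fullest VCaP ERG bins lay at 49 to 50 Mb (21 peaks), 58 to 59 Mb (20 peaks) and 18 to 19 Mb (19 peaks). The 3 fullest VCaP EWS bins were next to each other, at 16 to 17 Mb (19 peaks), 18 to 19 Mb (18 peaks) and 17 to 18 Mb (17 peaks). The stretch from 15 to 19 Mb, chosen after its values were seen like the others in this paragraph, held 58 VCaP ERG peaks (15.8% of those on the chromosome, 12.2% to 19.9%) and 69 VCaP EWS peaks (24.5%, 19.6% to 29.9%). On the far side of the centromere, 29 to 35 Mb held 20 VCaP ERG peaks (5.43%, 3.35% to 8.27%) and 41 of the 282 VCaP EWS peaks (10.6% to 19.2%). Toward the end of the long arm, 52 to 60 Mb held 91 VCaP ERG peaks (24.7%, 20.4% to 29.5%) and 39 VCaP EWS peaks (13.8%, 10.0% to 18.4%). The size of that contrast rests on where the stretch begins: from 51 to 60 Mb the shares were 25.8% of VCaP ERG (21.4% to 30.6%) and 19.5% of VCaP EWS peaks (55 of 282), with overlapping intervals. Between 45 and 51 Mb lay 23.6% of VCaP ERG peaks (19.4% to 28.3%) and 17.0% of VCaP EWS peaks (12.8% to 21.9%). Both were thin at the tip of the short arm, with 25 ERG peaks and 16 EWS peaks between 0 and 12 Mb.

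RWPE1 lists were spread more thinly, with replicate 2 of WT ERG as the exception. P436A ERG had a peak in 33 bins, and its fullest was 16 to 17 Mb with 7 peaks, followed by 14 to 15 Mb with 4 and 42 to 43 Mb with 3. In the same 16 to 17 Mb bin WT ERG had 1 peak in replicate 1 and 0 in replicate 2. P436A EWS had a peak in 27 bins, at most 3 in any, and its fullest were 0 to 1 Mb and 7 to 8 Mb. Replicate 1 of WT ERG had a peak in 25 bins, with 4 at 17 to 18 Mb and 3 in each of a few others, such as 2 to 3 Mb and 11 to 12 Mb. Replicate 2 of WT ERG had a peak in 27 bins, with 59 at 13 to 14 Mb and no more than 4 in any other. WT EWS had a peak in 32 bins, at most 3 in any, among them 23 to 24 Mb, 34 to 35 Mb and 40 to 41 Mb. In 23 to 24 Mb no other list had a peak.

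Bin counts of ERG and EWS hardly went together in RWPE1, where most bins held 0 to 3 peaks. Across the 60 bins the Spearman correlation of ERG with EWS was 0.0745 for P436A, and for WT it was 0.112 (replicate 1) and 0.106 (replicate 2). At such counts a weak correlation shows little either way. The 2 replicates of WT ERG correlated at Spearman 0.303, and at 0.343 without the 13 to 14 Mb bin. P436A ERG correlated with WT ERG at 0.330 (replicate 1) and 0.362 (replicate 2). Bins with a peak in all 4 ERG lists numbered 10, among them 18 to 19 Mb, 45 to 46 Mb and 49 to 50 Mb. All 3 EWS lists had a peak in 13 bins. Only 2 bins, 11 to 12 Mb and 18 to 19 Mb, had a peak in all 7 lists.

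**Figure D2:**
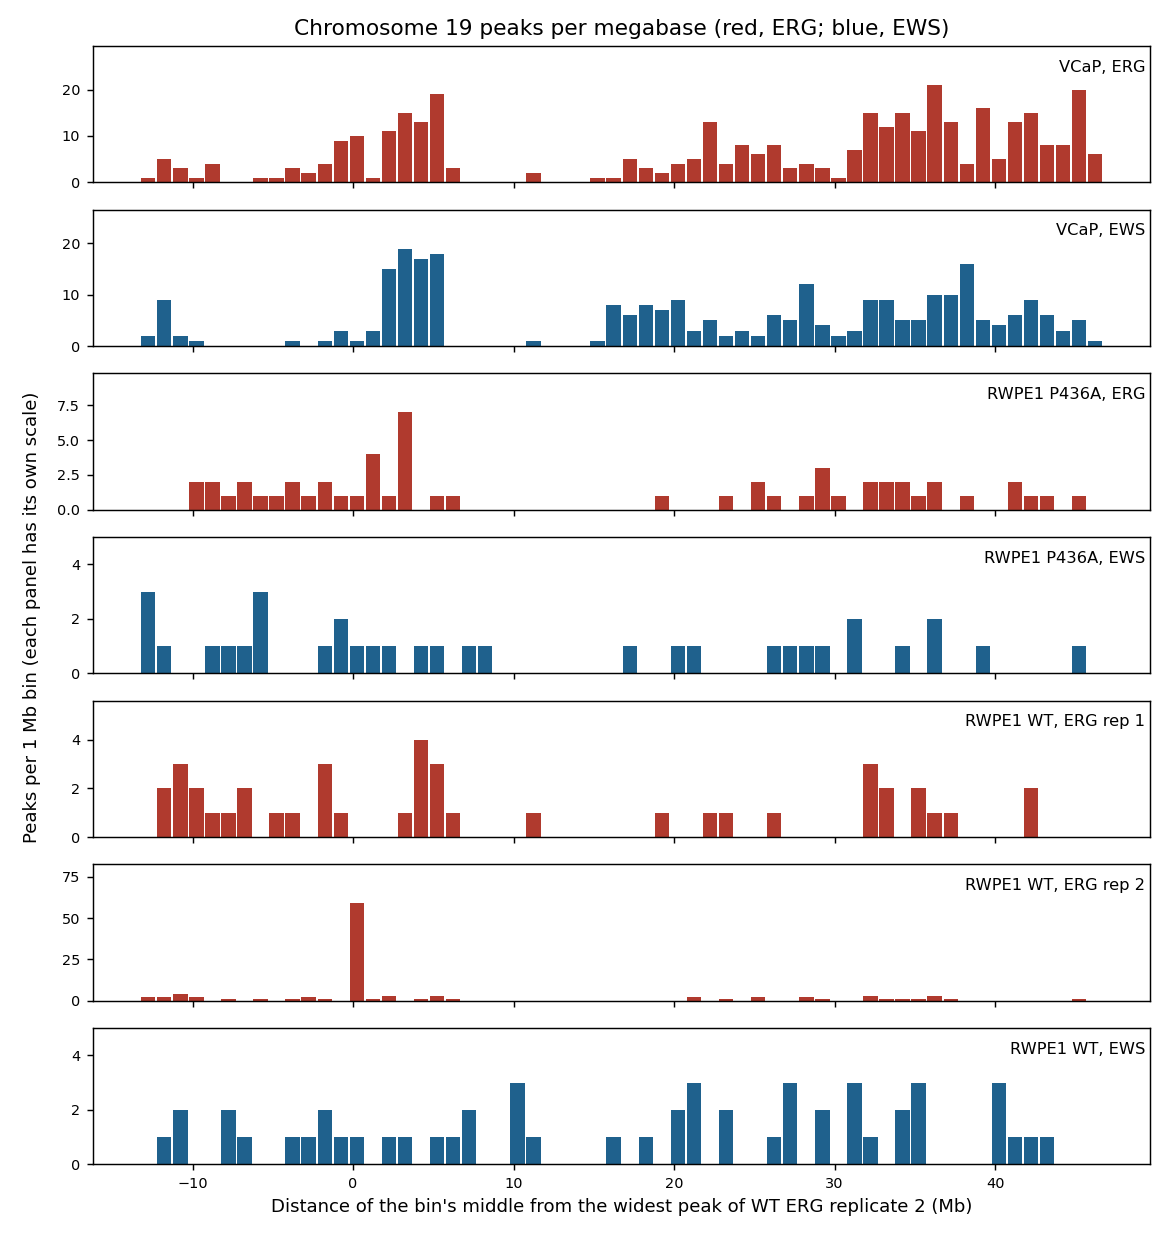
Number of chromosome 19 peaks in each 1 Mb bin for the 7 lists, plotted against the distance in Mb of the bin's middle from the widest peak of WT ERG replicate 2; each panel has its own vertical scale, red for ERG and blue for EWS. Replicate 2 of WT ERG has 59 peaks in the bin nearest to 0 and at most 4 in any other, while VCaP ERG reaches 21 and VCaP EWS 19 elsewhere.

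The lines also differed in which side of the chromosome carried their peaks. The longest stretch with no peak of any list ran for 4.01 Mb, at chr19:24270140-28284639, around the centromere. The side toward the end of the short arm held 29.3% of VCaP ERG peaks (108 peaks, 24.7% to 34.3%) and 33.0% of VCaP EWS peaks (93 peaks, 27.5% to 38.8%). In RWPE1 that side held 54.5% of P436A ERG (40.6% to 68.0%) and 58.8% of P436A EWS peaks (40.7% to 75.4%). It held 64.3% of WT ERG peaks in replicate 1 (48.0% to 78.4%) and 81.6% in replicate 2 (72.7% to 88.5%), and 42.3% of WT EWS peaks (28.7% to 56.8%). Without the 13 to 14 Mb bin replicate 2 had 56.8% there (41.0% to 71.7%). Both VCaP shares lay below all 5 RWPE1 shares, although the interval of WT EWS overlapped those of both VCaP lists. The 12 Mb at the tip of the short arm held 25.5% of P436A ERG and 32.4% of P436A EWS peaks, and of WT ERG peaks 38.1% in replicate 1 and 15.5% in replicate 2. It held 19.2% of WT EWS peaks, while in VCaP it held 6.79% for ERG and 5.67% for EWS.

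The megabase from 13 to 14 Mb set the WT ERG replicates apart. Replicate 2 had 59 peaks in it, 57.3% of its chromosome 19 peaks (47.2% to 67.0%) and 3.02% of its whole list. Replicate 1 had 0 of 42, which allows a share of up to 7.14% (3 counts). VCaP ERG had 10 peaks in it, and VCaP EWS, P436A ERG, P436A EWS and WT EWS had 1 each. In replicate 2 it was the fullest of 866 megabases with a peak in the genome, ahead of chromosome 9 from 130 to 131 Mb with 28 peaks. For VCaP ERG it ranked 106 of 1683.

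The 59 peaks formed a run in the lower part of the megabase. They lay between 13094079 and 13601317, a span of 507 kb. The next replicate 2 peaks on the chromosome were centred 1828 kb below this span, at 11266033, and 595 kb above it, at 14196219. In steps of 100 kb from 13 Mb the span held 3, 20, 17, 9, 4, 5 and 1 peaks, and none was centred above 13.7 Mb. Neighbouring peaks were 0.537 to 37.1 kb apart, with a median of 4.19 kb, and they covered 11.3% of the span. Density was thus highest between 13.1 and 13.3 Mb and trailed off toward higher positions. No other stretch of that length held more than 19 replicate 2 peaks anywhere in the genome, and none more than 4 on chromosome 19. WT EWS, by contrast, reached 60 peaks in such a stretch of chromosome 1, and VCaP ERG reached 139 on chromosome 11, so a run of this size was not the greatest among the 7 lists.

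Peaks in the run were wide for their list. Their median width was 734 bp, against 497 bp for the other 44 replicate 2 peaks of the chromosome, and 4 of the 5 peaks over 2000 bp in all of replicate 2 lay in the run. Its widest, chr19:13259432-13265416, measured 5985 bp and was the widest of the list. By list order, 19 of the 59 stood in the first 50% of the list and 40 in the rest, with places from 24 to 1952 of 1953. The first listed of them were chr19:13277256-13279282 at place 24, chr19:13171193-13172793 at place 50 and the widest peak at place 75. The order of a list is not documented as a ranking. The run thus held both early and late peaks of the list.

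Few other lists had peaks inside the run, and those that did were from VCaP ERG. Of the 10 VCaP ERG peaks in the bin, 6 fell within the span and 3 overlapped a replicate 2 peak. Those 3 were chr19:13135699-13136539, chr19:13164525-13165065 and chr19:13262196-13263031, the last of them within the widest replicate 2 peak. Another 2 were 0.152 and 0.322 kb from a replicate 2 peak, at chr19:13106607-13107132 and chr19:13134133-13134686. No peak of VCaP EWS, P436A ERG, P436A EWS, WT ERG replicate 1 or WT EWS fell within the span. The VCaP EWS peak of the bin, chr19:13027578-13028058, lay 66.0 kb outside it and the P436A EWS peak, chr19:13004923-13005400, 88.7 kb. P436A ERG had its peak at chr19:13949453-13949951 and WT EWS at chr19:13944563-13945179, 348 and 343 kb away. Replicate 1 had its nearest peaks at 12894697 and 16181521, on either side of the bin.

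**Figure D3:**
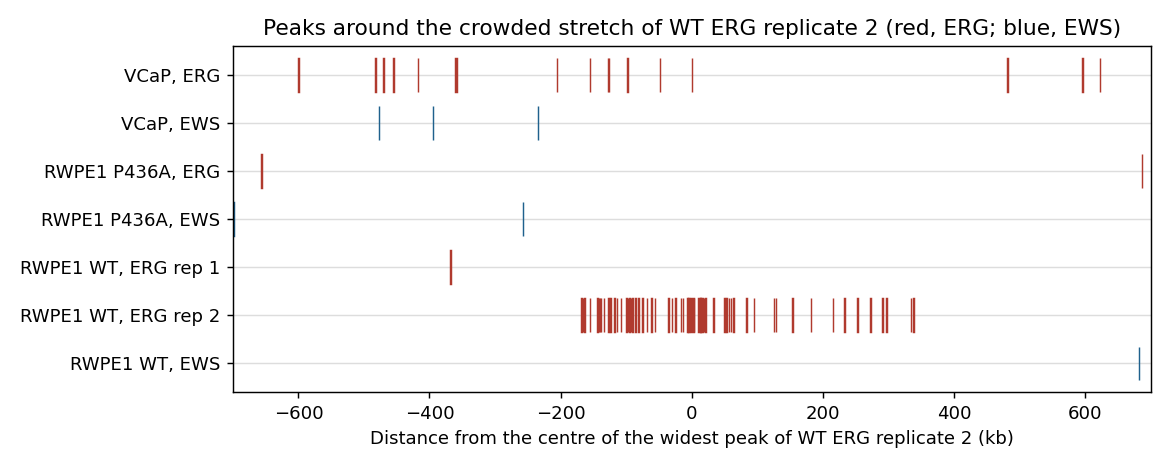
Peaks of the 7 lists within 700 kb of the centre of the widest WT ERG replicate 2 peak, drawn to scale as boxes against distance in kb, red for ERG and blue for EWS. The 59 replicate 2 peaks form a run of 507 kb in which VCaP ERG has 6 peaks and no other list has any.

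Chromosome 19 regions found in more than 1 list had ERG lists alone in 66.7% of cases (49.8% to 80.9%), against 25.8% of such regions on the other chromosomes (23.9% to 27.8%). Merging all overlapping chromosome 19 peaks, by at least 1 bp, gave 892 regions, of which 853 had a peak of 1 list, 34 of 2 lists, 5 of 3 lists and 0 of 4 or more. Of the 39 regions in 2 or more lists, 26 had ERG lists alone, 13 had both antibodies and 0 had EWS lists alone. Elsewhere 66.9% of 1983 such regions had both antibodies and 7.36% had EWS lists alone. Both lines were represented in 27 of the 39 (69.2%, 52.4% to 83.0%), against 25.7% elsewhere. These differences from the other chromosomes were not tested, and the regions elsewhere were not matched to chromosome 19 in crowding. Elsewhere 867 VCaP ERG peaks had a VCaP EWS peak, 792 in bins with more than 37 VCaP peaks and 75 in other bins. No chromosome 19 bin held more than 37, and the shares of regions were not recomputed without such crowded bins. Of the 26 regions with ERG lists alone, 3 lay in the run of WT ERG replicate 2, which was chosen by its counts. These 3 were also among the 27 with both lines. The 5 regions in 3 lists all had ERG lists alone, and they are named here after their values were seen, since the rule to name regions in 4 or more lists found none. VCaP ERG, P436A ERG and replicate 1 of WT ERG met at chr19:3141766-3142565, chr19:9731515-9732519 and chr19:48824524-48825989. VCaP ERG met both WT ERG replicates at chr19:18262960-18263785, and P436A ERG met both at chr19:18589310-18590250. The last 2 were also the only places where the WT ERG replicates overlapped on the chromosome.

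ERG peaks of RWPE1 met VCaP ERG peaks at a higher share on chromosome 19 than elsewhere in all 3 RWPE1 ERG lists. Whether the margin lay within counting error varied with the list and with the 13 to 14 Mb megabase. A VCaP ERG peak lay at 6 of 55 P436A ERG peaks (10.9%, 4.11% to 22.2%), against 6.45% of those outside chromosome 19. It lay at 10 of 42 peaks of WT ERG replicate 1 (23.8%, 12.1% to 39.5%), against 8.23% elsewhere. In replicate 2 it lay at 9 of 103 (8.74%, 4.07% to 15.9%), against 4.32% elsewhere, and 3 of those 9 were in the 13 to 14 Mb run. Without that megabase, left out after the values were seen, it lay at 6 of 44 replicate 2 peaks (13.6%, 5.17% to 27.4%). That interval excludes the 4.32% elsewhere. With all peaks counted and seen from the RWPE1 lists, the interval on chromosome 19 excluded the value elsewhere for replicate 1 alone. Seen from the VCaP ERG list the same overlaps were 1.63% with P436A ERG (0.601% to 3.51%), against 1.49% elsewhere, and 2.72% with replicate 1 (1.31% to 4.94%), against 2.09% elsewhere. With replicate 2 the share was 2.45% (1.12% to 4.59%), against 1.09% elsewhere. From this side it was replicate 2 whose interval excluded the value elsewhere, narrowly and only with the 13 to 14 Mb megabase counted. Without that megabase the share was 6 of 358 (1.68%, 0.617% to 3.61%), an interval that includes the value elsewhere. The differences from the other chromosomes were not tested.

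Mutant ERG met replicate 1 of WT ERG at 8 chromosome 19 peaks and replicate 2 at 1, a contrast that was not tested. Replicate 1 peaks lay at 8 of the 55 mutant peaks (interval 6.50% to 26.7%), against 12.6% elsewhere, and these were 8 of 42 replicate 1 peaks (interval 8.60% to 34.1%), against 11.5% elsewhere. They included chr19:4812945-4813436, at place 90 of the P436A ERG list and place 84 of replicate 1. With replicate 2 it overlapped at 1 peak, 1.82% of its own (7.81% elsewhere) and 0.971% of replicate 2 (7.14% elsewhere). The WT replicates overlapped each other at 2 peaks, 1.94% of replicate 2 (6.16% elsewhere) and 4.76% of replicate 1 (6.08% elsewhere). Replicate 2's interval for P436A ERG, 0.0246% to 5.29%, lay below its value elsewhere. No peak of the run overlapped P436A ERG or replicate 1, and without that megabase the share was 1 of 44 (2.27%), with an interval that includes the value elsewhere. With replicate 1 the share of replicate 2 was then 2 of 44 (4.55%, 0.555% to 15.5%).

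In VCaP, ERG and EWS peaks seldom coincided on chromosome 19. An EWS peak lay at 5 of 368 ERG peaks (1.36%, 0.443% to 3.14%), against 11.8% elsewhere (11.1% to 12.6%). Of 282 EWS peaks, 5 lay at an ERG peak (1.77%, 0.578% to 4.09%), against 10.5% elsewhere. The 5 ERG peaks were chr19:15291443-15291969, chr19:50083397-50084359, chr19:51297802-51298300, chr19:52555201-52555716 and chr19:52839062-52839552, and the overlaps measured 69 to 311 bp. Within 10 kb, 15.8% of ERG peaks had an EWS peak (12.2% to 19.9%), against 37.6% elsewhere, and 20.2% of EWS peaks had an ERG peak (15.7% to 25.4%), against 38.2% elsewhere. The median distance from an ERG peak to the nearest EWS peak was 52.3 kb on chromosome 19 and 32.8 kb elsewhere.

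The share elsewhere differed with the crowding of the VCaP lists. On chromosome 19 no bin held more than 37 VCaP peaks of both antibodies. In bins of the other chromosomes with no more than that, 75 of 4861 ERG peaks had an EWS peak, 1.54% (1.22% to 1.93%), and 1.47% of EWS peaks had an ERG peak (1.16% to 1.84%). In bins more crowded than that, 792 of 2476 ERG peaks had an EWS peak, 32.0% (30.2% to 33.9%). The 1.36% of chromosome 19 lies in the interval of the less crowded bins, a comparison added after the values were seen. Those bins share an upper limit with chromosome 19 and were not matched to its bins in density, and the part of crowding in the difference was not tested.

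With P436A, ERG and EWS did not coincide anywhere on the chromosome, and with WT ERG they did so at 2 sites. Of 55 P436A ERG peaks 0 had an EWS peak of the same cells, which allows a share of up to 5.45%, beside 2.25% elsewhere. Replicate 1 of WT ERG had a WT EWS peak at 2 of 42 peaks (4.76%, 0.582% to 16.2%), beside 9.36% elsewhere, and these were 3.85% of WT EWS peaks (3.03% elsewhere). Replicate 2 had 0 of 103, which allows up to 2.91% by the limit of 3 counts, beside 3.41% elsewhere. Its exact upper bound was 3.52%, above the value elsewhere, so a lower share was not detectable. Of WT EWS peaks elsewhere, 1.11% had a replicate 2 peak. Without the 13 to 14 Mb megabase replicate 2 had 0 of 44, with an exact upper bound of 8.04%. Both sites of replicate 1 were listed early in both lists, in an order that is not documented as a ranking. At chr19:36065943-36067076 lay the first listed chromosome 19 peak of replicate 1, at place 13, and of WT EWS, at place 10. The other, chr19:24183500-24184695, was at places 36 and 20. It lay below the peak-free stretch around the centromere, which begins at 24270140. The overlaps measured 980 and 887 bp. The input samples were not looked at there, so whether the 2 sites are specific to the antibodies was not tested. At this number of peaks no difference between P436A and WT ERG in EWS overlap was detectable on chromosome 19.

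The EWS lists shared no chromosome 19 site with each other. P436A EWS had 34 peaks there, and 0 of them overlapped a peak of any other list, which allows a share of up to 8.82%. Elsewhere 11.0% of its peaks lay at a peak of some other list, above that limit and above the exact upper bound of 10.3%, a difference that was not tested. List by list, elsewhere 0.685% of its peaks lay at VCaP ERG, 2.80% at VCaP EWS, 2.17% at P436A ERG, 1.54% at replicate 1 and 2.40% at replicate 2 of WT ERG, and 4.57% at WT EWS. WT EWS had 52 peaks, with 0 at VCaP ERG, VCaP EWS, P436A ERG, P436A EWS or replicate 2 of WT ERG, each allowing up to 5.77%. Outside chromosome 19 those shares were 0.531%, 1.24%, 1.52%, 1.42% and 1.11%, in that order. Each of these values for a single other list lies within what a count of 0 allows, so list by list a lower share on chromosome 19 was not detectable. VCaP EWS peaks did lie at some RWPE1 ERG peaks: at 3 of 55 P436A ERG peaks (5.45%, 2.66% elsewhere), 2 of 42 peaks of WT ERG replicate 1 (4.76%, 1.24% elsewhere) and 1 of 103 of replicate 2 (0.971%, 3.84% elsewhere). As shares of the 282 VCaP EWS peaks these were 1.06% (0.488% elsewhere), 0.709% (0.250% elsewhere) and 0.355% (0.770% elsewhere).

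**Figure D4:**
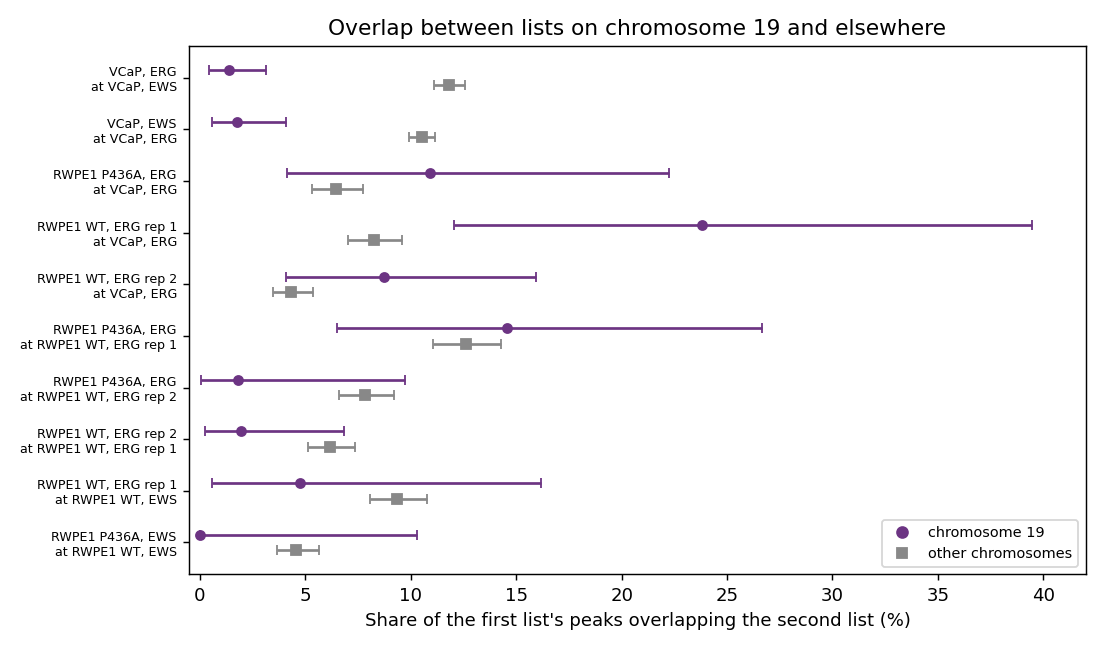
Share of a list's peaks, in percent, that overlapped the list named after "at", on chromosome 19 (purple circles) and on the other chromosomes (grey squares), with exact 95% binomial intervals. VCaP ERG at VCaP EWS is at 1.36% on chromosome 19 and 11.8% elsewhere, and replicate 1 of WT ERG at VCaP ERG is at 23.8% and 8.23%.

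Median peak widths on chromosome 19 were near those of the rest of each list, but VCaP ERG had few of its wide peaks there. Median widths were 684 bp on it and 721 bp elsewhere for VCaP ERG, 487 and 491 bp for VCaP EWS, 490 and 491 bp for P436A ERG, and 488.5 and 491 bp for P436A EWS. For WT ERG they were 659 and 607 bp in replicate 1 and 572 and 501 bp in replicate 2, and for WT EWS 499 and 500 bp. VCaP ERG had 3 of 368 peaks over 2000 bp on chromosome 19, the widest of 2234 bp at chr19:50379081-50381314. Elsewhere 474 of 7337 were over 2000 bp, of up to 184765 bp. P436A lists and VCaP EWS had no peak wider than 501 bp, on chromosome 19 or elsewhere, so lists differ in width beyond any effect of place, and settings of the peak calls are not given.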

How the data were processed

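ChIP DNA was sheared and sequenced, and the submitters' processing notes name Bowtie2 (version given as 0.12.8) and hg19. How peaks were called (program, cutoff, control) was not given in the sources used here. The deposited lists, 1 per ChIP sample, hold 3 columns (chromosome, start, end) in base pairs, with no score and no depth. Starts were read as 0-based and are printed 1-based. Peaks were binned by centre into 1 Mb bins, and overlap meant at least 1 bp. Shares have exact (Clopper-Pearson) 95% intervals, and a count of 0 was given the limit of 3 counts. Exact permutation tests over lists were two-sided and adjusted (Benjamini-Hochberg) over 2 tests. Named regions were the 3 fullest bins, the first listed and the widest peak of a list, regions in 4 or more lists, and peaks of the 13 to 14 Mb bin. The members and lists were chosen with earlier results of these data known. Overlap counting was tested on simulated data. Python 3.11.15, NumPy 2.4.6, SciPy 1.17.1 and Matplotlib 3.10.9 were used.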

Additional observations from a re-analysis of the deposited data

How the results depend on the processing

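No paired analysis was possible because, for a replicate block, the groups with peak lists shared fewer than 2 replicate numbers. A pairing of ERG and EWS lists by cells, added after seeing the data, gave 1.96 points (exact permutation p = 0.25, the smallest it can give). Neither test over lists passed under any alternative. The ERG minus EWS difference in chromosome 19 share stayed positive, from 1.17 points without the 13 to 14 Mb bin to 2.47 without replicate 1 of WT ERG, and was 1.45 without replicate 2. VCaP minus RWPE1 ran from 0.628 points with the first 50% of each list to 1.83 without replicate 2, and was 1.06 without replicate 1. With the first 50% of each list, chromosome 19 shares became 2.42% for VCaP EWS, 4.24% for P436A ERG and 3.05% for replicate 1 of WT ERG. Without the 13 to 14 Mb bin, a setting chosen after seeing the data, replicate 2 had 2.32%. By base pairs covered, its 3 fullest bins held 76.2%, against 64.1% by counts.

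With its edges moved up by 0.5 Mb the 13 to 14 Mb bin held 7 peaks of WT ERG replicate 2, 4 of P436A ERG and 3 of VCaP ERG. Moved down by 0.5 Mb it held 3 of VCaP EWS, 2 of P436A EWS and 1 of replicate 1. In the first 50% of each list the count was 19 for replicate 2, 3 for VCaP ERG, and 0 for VCaP EWS, P436A EWS and WT EWS.

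A reciprocal overlap of 0.5 left VCaP ERG 2 peaks with VCaP EWS, 2 with P436A ERG and 3 with replicate 2, and VCaP EWS 0 with replicate 2. With the first 50% of each list, VCaP ERG had 0 with VCaP EWS, 5 with replicate 1 and 4 with replicate 2. VCaP EWS then had 0 with P436A ERG, 1 with replicate 1 and 0 with replicate 2. P436A ERG had 4 with replicate 1 and 0 with replicate 2, and the replicates had 1 with each other. The cause of these shifts was not tested beyond the shorter lists themselves. The other 92 overlap counts stayed within 1.5 times, but many of them were 0 in both settings. A reciprocal rule, shorter lists or a bin left out can only take overlaps away. Counts of 0 could not change under these, so they say nothing about robustness. Outside chromosome 19, the share of VCaP ERG peaks with a VCaP EWS peak was 11.8% in all bins and 1.54% in bins no more crowded than on chromosome 19, also chosen after seeing the data. Depth is unknown, so a missing peak cannot be told apart from a shallow list.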

Other observations

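The megabase from 51 to 52 Mb contains the window left out. Outside that window it held 4 VCaP ERG peaks (1.09% of those on the chromosome, 0.297% to 2.76%) and 16 VCaP EWS peaks (5.67%, 3.28% to 9.05%). With the window's peaks kept in, it held 11 VCaP ERG peaks (2.93%, 1.47% to 5.19%) and 17 VCaP EWS peaks (6.01%, 3.54% to 9.44%), with overlapping intervals, so the contrast between the antibodies rests largely on the peaks left out. RWPE1 lists had 1 peak there, of P436A ERG, at chr19:51806155-51806603, and it overlapped a VCaP EWS peak by 449 bp. Of the 3 P436A ERG peaks at a VCaP EWS peak, the others were at chr19:16150964-16151441 and chr19:46714330-46714830.

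From 20 to 29 Mb, around the centromere, WT EWS had 6 of its 52 peaks (11.5%, 4.35% to 23.4%), against 3 of 368 for VCaP ERG (0.815%, 0.168% to 2.36%) and 2 of 282 for VCaP EWS (0.709%, 0.0860% to 2.54%). P436A EWS had 2 peaks there and P436A ERG 0, and WT ERG had 1 in replicate 1 and 0 in replicate 2.

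Replicate 1 of WT ERG had the highest share of chromosome 19 peaks found in any other list, 19 of 42 (45.2%, 29.8% to 61.3%), and also the highest elsewhere, 29.4%. P436A ERG had 14 of 55 (25.5%), against 27.9% elsewhere, and replicate 2 of WT ERG had 11 of 103 (10.7%), against 19.6% elsewhere. Of those 103 peaks 59 lay in the 13 to 14 Mb run, where 3 met a VCaP ERG peak and no other list was met. The lower share of replicate 2 thus rests largely on that run. VCaP ERG had 26 of 368 (7.07%), against 15.7% elsewhere, and VCaP EWS had 11 of 282 (3.90%), against 12.7% elsewhere. WT EWS had 2 of 52 (3.85%), against 7.33% elsewhere, and P436A EWS had 0 of 34, against 11.0% elsewhere.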
